A study of Rattus norvegicus with 2 samples.

Results

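Motile-cilia cells were a small population of cells prepared from rat optic nerve that carried transcripts of the motile axoneme. Among cells with at least 500 detected genes and at most 20% of their UMIs (unique molecular identifiers, each standing for 1 captured transcript) from the 13 mitochondrial protein-coding genes, a cell was counted here when at least 3 of 6 genes, Dynlrb2, Cfap126, Ccdc153, Fam183a, Tmem212 and Fam216b, had a UMI and their sum reached 500 CPM (UMIs per 1000000 UMIs of that cell). This gave 17 of 1968 kept cells in the WT library and 137 of 1793 in the Nuc1 library, 154 of 3761 in all. The values of these 6 genes chose the cells, so that their levels, and every comparison of these cells with the rest, are given as a description with no test.

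The study prepared single-cell 3′ RNA libraries from optic nerve, labelled as postnatal day 7. The paper describes the sequenced cells as primary mixed glial cultures, and the series title also speaks of a mixed cell culture. The design text describes digested nerve. Shares and levels may therefore reflect culture as well as the tissue. WT rats were Sprague Dawley, and Nuc1 rats are a Sprague Dawley line with a spontaneous insertion mutation in Cryba1, the gene of βA3/A1-crystallin. Each genotype was represented by 1 library, and nothing in the labels says how many animals were pooled in it. No test between genotypes was therefore possible, and the intervals given are 95% exact intervals that cover counting error only. No UMI of Cryba1 was found in any cell of either library, so the genotype labels could not be checked from it.

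Motile cilia beat by means of an axoneme, a ring of doublet microtubules around a central pair. Dynein arms slide the doublets, radial spokes and the central pair steer the bend, and a regulatory complex (N-DRC) links neighbouring doublets. Each cilium grows from a basal body, and intraflagellar transport trains carry its parts in and out through the transition zone. A cell with many motile cilia first multiplies its centrioles, a step in which Ccno, Deup1 and Plk4 take part. RFX factors bind the promoters of many cilia genes through the X-box, a motif built on GTTGCC repeats. In the brain such cells form the ependyma, which lines the ventricles and moves cerebrospinal fluid, and ependymal cells descend from the same radial glia as astrocytes.

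Because cilia genes share this motif, the promoter windows of the members were searched for it in the RefSeq sequences of GRCr8 (250 bases before to 50 after the annotated start, both strands). Of the 105 listed motile cilia genes in the files, 85 had a window, and 34 of these (40%) held GTTGCC, against 12.2% of 27457 windows. The X-box form, the half-site GTNNCC and its reverse complement GGNNAC with 2 free bases between them, which overlaps GTTGCC where its free bases allow, was in 14 of 85 (16.5%) against 1.86%. It was in 6 of 19 transition zone windows (31.6%) and in 0 of 23 astrocyte windows, of which 17.4% held the GTTGCC letters. The forkhead motif GTAAACA was in 4 of 85 (4.71%) against 3.76%. Of the 6 genes of the rule, Ccdc153 and Fam183a held GTTGCC. The 6 windows below are shown because they hold the motifs in genes described further on: Fam183a (chr10:44019282-44019531, minus strand) and Ccdc153 (chr8:53474409-53474658, plus strand) from the rule, the dynein assembly factors Zmynd10 (chr8:117098779-117099028, plus strand) and Cfap298 (chr11:43677383-43677632, minus strand), and the dynein heavy chains Dnah12 (chr16:1944502-1944751, plus strand) and Dnah2 (chr10:54766027-54766276, minus strand). Each line gives the 250 bases before the start, 5′ to 3′ on the gene's strand, with every match to GTTGCC or to the X-box form, on either strand, in capitals.
Fam183a: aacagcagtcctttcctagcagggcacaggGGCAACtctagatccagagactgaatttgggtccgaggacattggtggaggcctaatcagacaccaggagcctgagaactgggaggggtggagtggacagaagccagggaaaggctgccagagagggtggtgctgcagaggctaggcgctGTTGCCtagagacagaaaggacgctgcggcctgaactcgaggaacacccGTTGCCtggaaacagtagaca
Ccdc153: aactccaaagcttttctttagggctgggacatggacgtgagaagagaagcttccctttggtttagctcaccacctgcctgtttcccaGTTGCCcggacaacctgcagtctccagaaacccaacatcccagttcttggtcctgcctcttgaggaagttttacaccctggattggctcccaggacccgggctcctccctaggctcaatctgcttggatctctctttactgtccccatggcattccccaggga
Zmynd10: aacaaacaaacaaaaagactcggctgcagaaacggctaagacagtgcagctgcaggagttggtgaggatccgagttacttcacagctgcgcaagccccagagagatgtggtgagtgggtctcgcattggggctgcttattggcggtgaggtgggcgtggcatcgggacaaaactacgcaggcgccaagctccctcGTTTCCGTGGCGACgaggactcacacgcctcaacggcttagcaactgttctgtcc
Cfap298: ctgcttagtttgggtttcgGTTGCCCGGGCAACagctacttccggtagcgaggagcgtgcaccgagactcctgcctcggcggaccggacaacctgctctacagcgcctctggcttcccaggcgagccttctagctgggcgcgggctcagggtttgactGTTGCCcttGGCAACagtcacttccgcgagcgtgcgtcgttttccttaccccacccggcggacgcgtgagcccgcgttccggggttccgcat
Dnah12: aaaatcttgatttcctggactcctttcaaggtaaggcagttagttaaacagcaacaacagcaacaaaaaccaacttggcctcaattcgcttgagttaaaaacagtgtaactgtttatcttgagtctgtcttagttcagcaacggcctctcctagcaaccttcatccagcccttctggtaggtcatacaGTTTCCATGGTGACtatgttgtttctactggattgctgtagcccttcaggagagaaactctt
Dnah2: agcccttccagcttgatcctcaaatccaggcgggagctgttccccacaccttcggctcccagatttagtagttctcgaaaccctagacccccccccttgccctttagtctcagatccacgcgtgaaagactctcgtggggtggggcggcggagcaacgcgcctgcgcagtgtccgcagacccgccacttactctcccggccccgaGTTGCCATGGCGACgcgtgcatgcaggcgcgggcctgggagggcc
Fam183a carried 3 copies of GTTGCC, counted on either strand, at 220, 70 and 21 bases before its start. A match says only that these letters are in the window.

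The motile-cilia cells were 0.864% of kept WT cells (0.504 to 1.38%) and 7.64% of kept Nuc1 cells (6.45 to 8.97%). Astrocytes, defined by a sum of Gfap, Fabp7 and Aqp4 of at least 2000 CPM outside the motile-cilia set, were 6.20% (5.17 to 7.36%) and 19.1% (17.3 to 20.97%). Of motile-cilia cells and astrocytes together, the motile-cilia cells were 12.2% in WT (7.29 to 18.9%) and 28.6% in Nuc1 (24.6 to 32.9%). Their share was thus higher in the Nuc1 library both of all cells and of the glia, but sex, preparation, library and genotype cannot be told apart with 1 library each. A UMI of the Y-linked genes Eif2s3y or Kdm5d was found in 44 of 137 Nuc1 motile-cilia cells (32.1%) and in 0 of the 17 WT ones (upper limit 19.5%), and in 413 and 1 kept cells respectively, so that the libraries also differed in sex makeup. Kept cells came from 2107 WT barcodes with 34517542 UMIs and 1929 Nuc1 barcodes with 35794685 UMIs, and the libraries shared 2 barcodes, 0 of them in motile-cilia cells.

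The cells were close to astrocytes in depth. UMIs per motile-cilia cell ran from 12945 through a median of 25114 to 59053 in WT and from 891 through 20685 to 77222 in Nuc1, and the astrocyte medians were 25397.5 and 24364.5. The mitochondrial share was on the high side, with medians of 13.2% and 12.9% against 12.6% and 10.6% in astrocytes and 9.13% and 8.96% in the other kept cells. With a mitochondrial limit of 10% only 1 WT and 28 Nuc1 cells would remain, so every value of the WT cells rests on that limit. The rule also admitted cells with much astrocyte RNA, since 10 of 17 WT cells (58.8%, 32.9 to 81.6%) and 102 of 137 Nuc1 cells (74.5%, 66.3 to 81.5%) themselves reached the astrocyte limit of 2000 CPM. Doublets were not called, and their part in this was not tested.

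**Figure D1:**
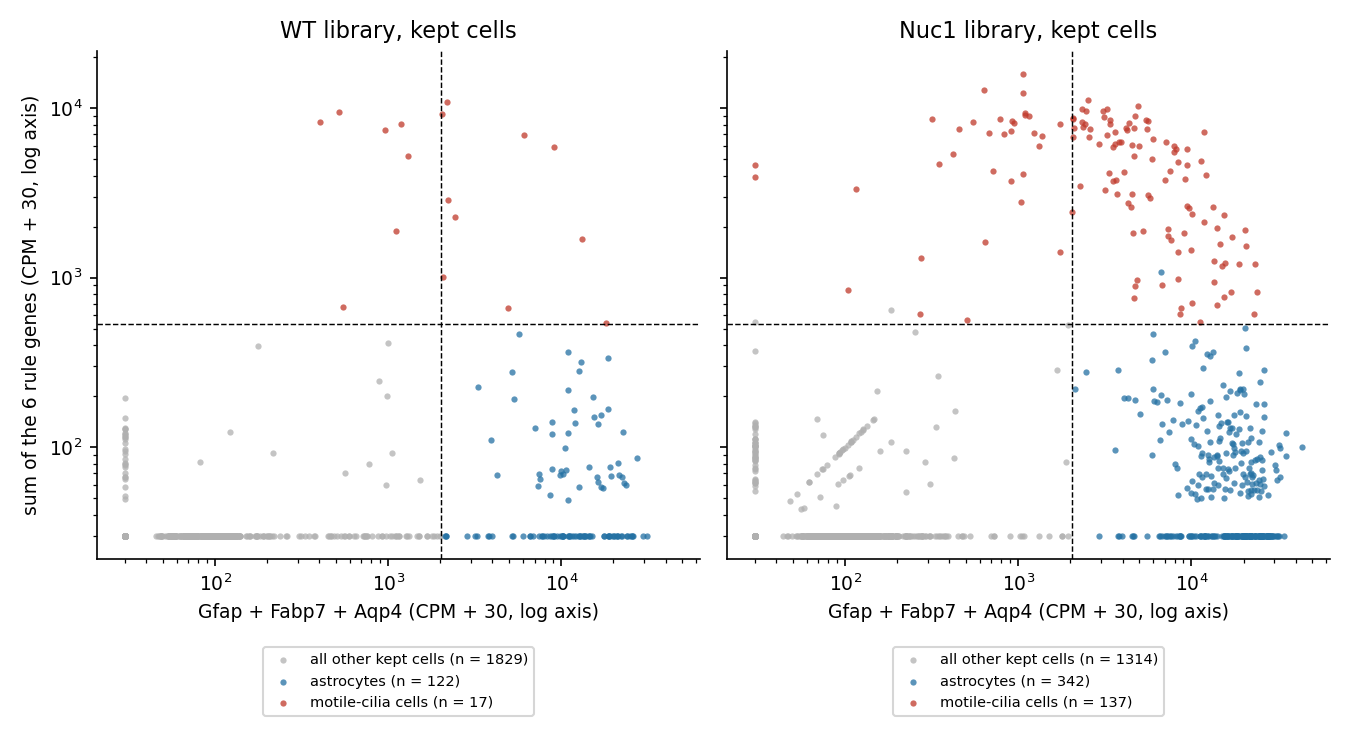
Sum of the 6 rule genes (y) against the sum of Gfap, Fabp7 and Aqp4 (x) in every kept cell, both in CPM plus 30 on log axes, 1 point per cell, with dashed lines at 500 and 2000 CPM. Motile-cilia cells of both libraries lie on both sides of the astrocyte limit, and 10 of 17 WT and 102 of 137 Nuc1 cells reach it.

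The 6 genes of the rule code for parts or companions of the axoneme, and most members held all of them. All 6 had a UMI in 10 WT and 97 Nuc1 cells, 5 of them in 1 and 22 cells, 4 in 5 and 10 cells, and 3 in 1 and 8 cells. The sum of the 6 genes per cell ran from 510 through a median of 5179 to 10892 CPM in WT and from 517 through 4597 to 15914 CPM in Nuc1. Just inside the limit were sums of 510, 635 and 637 CPM in WT and 517, 530 and 580 in Nuc1, and the cells just outside had 433, 379 and 366 in WT and 499, 474 and 438 in Nuc1. Of cells with at least 3 genes, 8 in WT and 19 in Nuc1 had a lower sum. Cells that failed on the number of genes had, at the most, 1045 CPM from 2 genes in Nuc1 and 289 CPM from 2 genes in WT.

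Dynlrb2 (ENSRNOG00000012450), a light chain of dynein motors that is abundant in ciliated tissue, was found in all 17 WT and all 137 Nuc1 cells. Its level per cell was 119 CPM at the lowest, 1120 at the median and 3322 at the highest in WT, and 72.8, 1566 and 5954 in Nuc1. Over the summed UMIs of each group it was at 1670 CPM in WT and 1457 in Nuc1, against 24.0 and 24.4 in astrocytes, a log2 ratio of 6.10 (5.77 to 6.48) and 5.90 (5.70 to 6.11). Its nearest relative Dynlrb1, which serves dynein in every cell, was at 358 and 300 CPM against 323 and 277. Dynlrb2 helped to choose the cells and Dynlrb1 did not, so the difference between the pair is partly set by the rule. Cfap126 (ENSRNOG00000034221), which helps to place the basal body at the cell surface, was found in 17 and 134 cells, at a median of 850 and 1090 CPM per cell.

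Ccdc153 and Tmem212 were found in fewer WT members than the other rule genes, but in Nuc1 not in fewer members than Fam183a. Ccdc153 (ENSRNOG00000039086), a coiled-coil protein of the axoneme, had a UMI in 12 of 17 WT and 119 of 137 Nuc1 cells, from 0 through 538 to 2660 CPM and from 0 through 554 to 3367 CPM. Tmem212 (ENSRNOG00000012608), a membrane protein found in ciliated epithelia, was in 10 and 120 cells with medians of 323 and 283 CPM, and in WT astrocytes it had no UMI, so that the WT cells were at least 361-fold higher. Fam183a (ENSRNOG00000002873) was in 16 and 119 cells and Fam216b (ENSRNOG00000021943) in 16 and 127. These shares stand far above the level outside glia: in fibroblast-rich cells, which should lack motile cilia, 1.14% of WT and 4.05% of Nuc1 cells had a UMI of Dynlrb2, and for each of the other 5 genes the share was below 1%, namely 0.285% and 0.954% for Cfap126, 0.228% and 0.636% for Ccdc153 and 0% and 0.636% for Tmem212.

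Tppp3 and Mlf1 were not used by the rule, though they come from the same cells. Tppp3 (ENSRNOG00000016890), a tubulin polymerization-promoting protein, was in 15 WT and 134 Nuc1 cells with medians of 1085 and 1415 CPM, and Mlf1 (ENSRNOG00000012827), known from myeloid leukaemia and abundant in ciliated cells, was in 17 and 128 cells with medians of 717 and 791 CPM. Summed, Tppp3 was at 1505 and 1476 CPM against 154 and 249 in astrocytes, and Mlf1 at 850 and 770 against 26.9 and 57.6. The log2 ratios were 3.29 and 2.57 for Tppp3 and 4.97 and 3.74 for Mlf1. They were smaller than those of the rule genes, whose values chose the cells. Mlf1 also had a UMI in 10.2% and 5.25% of fibroblast-rich cells.

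Genes for every part of the motile cilium were present. The list of motile cilia genes, which leaves out the 6 rule genes, held 118 symbols, of which 105 were in the files, and their summed level per cell was 3106, 13685 and 34576 CPM (lowest, median, highest) in the WT cells and 1450, 14230 and 35762 CPM in the Nuc1 cells. Astrocytes reached 0, 893 and 4075 CPM in WT and 0, 865 and 4598 CPM in Nuc1. The ranges thus overlapped from 3106 to 4075 CPM in WT and from 1450 to 4598 CPM in Nuc1. Fibroblast-rich cells had medians of 378 and 364 CPM. Across 9019 genes with at least 20 UMIs over both groups in each library, 9.36% were at least 2-fold higher than in astrocytes in both libraries and 4.11% at least 2-fold lower. Of the 90 motile cilia genes outside the rule that passed this filter, 89 were higher, 0 were lower, and Dnal4, a dynein light chain with roles outside cilia, was neither. The median log2 ratio was 4.42 over the 90 genes that passed in WT and 4.33 over the 98 that passed in Nuc1, and medians of lists below are likewise over the genes that passed in each library. They stand against 0.04 and 0.16 over all genes. Genes measured only in the ciliated cells pass such a filter more easily when they are high there, so the counts describe this selection and are not support for it.

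To compare the number of cilia genes per cell at 1 depth, each cell was thinned to 10000 UMIs. The 17 WT cells then held 19, 62 and 86 motile cilia genes (lowest, median, highest) and 128 Nuc1 cells held 9, 58 and 83, with 9 shallower Nuc1 cells left out. Astrocytes held 1, 8 and 27 genes in 117 WT cells and 0, 8 and 30 in 320 Nuc1 cells, and the fibroblast-rich medians were 3 and 3. Without thinning the medians were 76 and 73 in motile-cilia cells, 15.5 and 16 in astrocytes and 4 and 5 in fibroblast-rich cells. The ranges of members and astrocytes overlapped from 19 to 27 genes in WT and from 9 to 30 in Nuc1.

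**Figure D2:**
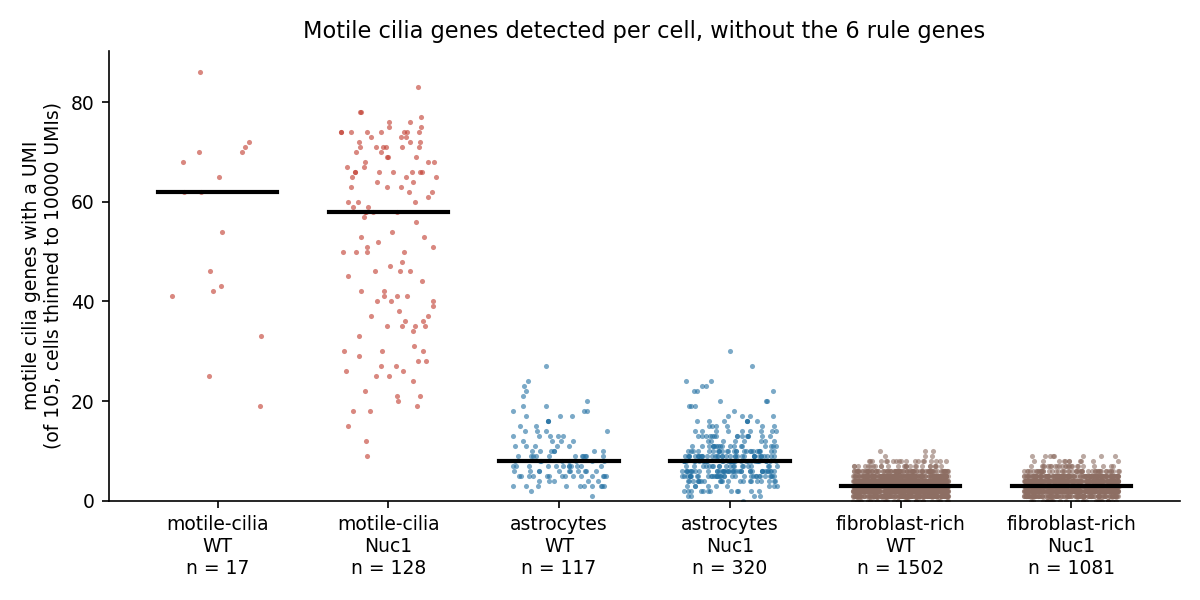
Number of the 105 motile cilia genes with a UMI (y) in each cell after thinning to 10000 UMIs, 1 point per cell, for motile-cilia cells (17 WT, 128 Nuc1), astrocytes (117, 320) and fibroblast-rich cells (1502, 1081), black bars at the medians. The medians are 62 and 58 genes in the motile-cilia cells, 8 and 8 in astrocytes and 3 and 3 in fibroblast-rich cells.

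Every class of axonemal part took a share in this. All 8 dynein heavy chains that passed the filter were higher, with a median log2 ratio of 5.60 in WT and 5.27 in Nuc1. Dnah6, an inner arm heavy chain, was at 141 and 159 CPM against 0.321 and 0.228 in astrocytes, and Dnah12, another inner arm chain, at 334 and 264 against 7.70 and 15.7. Dnah2, an inner arm chain whose promoter is shown above, was at 43.4 and 67.0 CPM against 0.641 and 1.479. The outer arm was there too, with Dnah9 at 124 and 96.3 CPM and Dnah5 at 75.9 and 53.5. Dnah8 and Dnah17, known from sperm tails, had no UMI. Of the intermediate and light chains 6 of 7 were higher (medians 3.84 and 3.55), among them Dnai1 of the outer arm at 73.7 and 114 CPM against 4.81 and 6.71, and Dnali1 of the inner arms at 275 and 264 against 18.9 and 22.5.

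The factors that place or build the arms followed. All 8 docking and ruler genes were higher (4.37 and 4.27), with the molecular ruler Ccdc39 at 341 and 230 CPM against 19.2 and 13.8. All 13 cytoplasmic assembly factors were higher (3.48 and 3.76). Zmynd10, whose promoter is shown above, was at 386 and 418 CPM against 15.1 and 18.1, and Cfap298, with both motifs, at 518 and 331 against 90.7 and 73.2. Dnaaf1 was at 193 and 146 CPM against 0.321 and 1.82.

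All 10 radial spoke genes that passed the filter were higher (4.25 and 3.83), with Rsph1 of the spoke head at 479 and 377 CPM against 20.8 and 32.0. Rsph4a, another head protein, had no UMI in the members. All 9 central pair genes were higher (4.66 and 4.84). Hydin, a giant central pair protein, was found at 51.0, 288 and 823 CPM per cell (lowest, median, highest) in WT and at 0, 299 and 1170 CPM in Nuc1, and its log2 ratio to astrocytes was 6.17 and 5.52. All 8 N-DRC genes (3.23 and 3.0) and all 27 genes of microtubule inner proteins and other doublet parts (4.43 and 4.95) were higher. Among the latter, Cfap43 was at 306 and 316 CPM against 1.92 and 8.88, and Enkur, which lies inside the doublet, at 616 and 387 against 68.3 and 65.3.

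**Figure D3:**
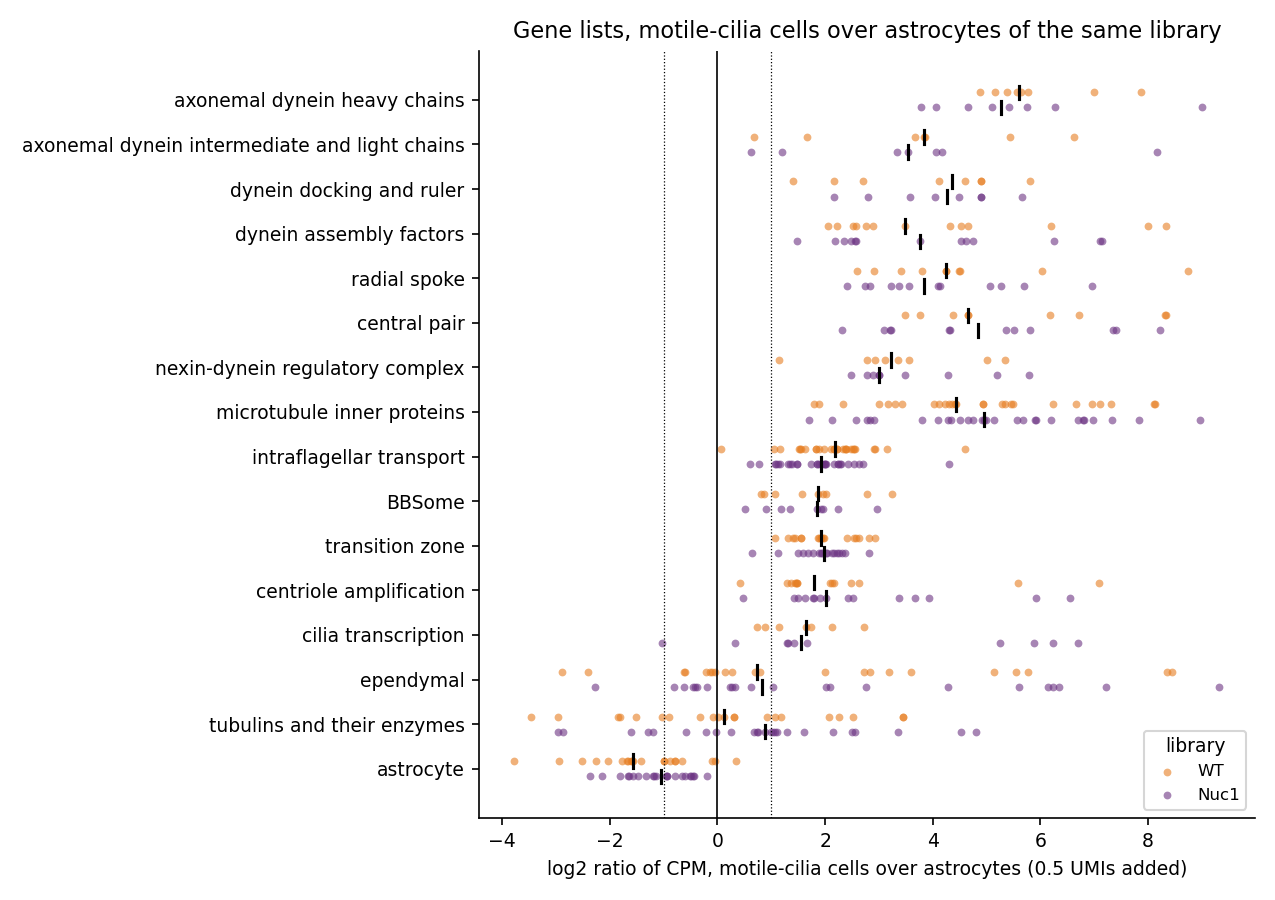
Log2 ratio of motile-cilia cells to astrocytes (x) for each gene of 16 lists (y) with at least 20 UMIs over both groups of cells in that library, orange for WT and purple for Nuc1, with black ticks at the medians and dotted lines at 2-fold. The axonemal lists sit between medians of 3.0 and 5.60, transport and transition zone genes near 2, and the astrocyte list below 0 with medians of -1.57 and -1.05.

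Genes that serve primary as well as motile cilia were higher by less. Of 28 intraflagellar transport genes 27 were higher, with medians of 2.19 in WT and 1.92 in Nuc1, and the exception was the motor subunit Kif3b at 36.9 and 38.3 CPM against 35.3 and 25.3. Its partner Kif3a was at 258 and 157 CPM against 65.1 and 56.0. Per cell the summed list ran from 2668 through 4304 to 9864 CPM in WT and from 1000 through 4007 to 15713 CPM in Nuc1, against astrocyte medians of 1143 and 1086. Of 18 transition zone genes 17 were higher (1.93 and 1.98), with Tmem107 at 523 and 358 CPM against 98.1 and 94.7 and the exception Tmem237, and of 9 BBSome genes, the cargo adaptor of the trains, 6 were higher (1.87 and 1.85).

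Transcription factors of the cilium were found, most of them above their astrocyte level. Of 7 that passed the filter 5 were higher, with medians of 1.64 and 1.55. Rfx2, an X-box factor, was at 97.6 and 80.5 CPM against 29.2 and 32.3, Rfx3 at 45.5 and 58.0 against 14.4 and 18.2, and Tp73, which acts early in multiciliated cells, at 52.1 and 49.0 against 7.70 and 0.569. Foxj1, the best known factor of motile cilia, was not analysed here. Of 14 centriole amplification genes 13 were higher and 0 lower, with medians of 1.79 and 2.01, and Cetn2, a centriole core protein, was at 831 and 617 CPM against 135 and 153.

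Tubulin genes moved in both directions. Of 21 tubulins and tubulin-modifying enzymes 7 were higher and 5 lower. Tubb4b, the chief beta-tubulin of motile cilia, was at 199, 2522 and 8416 CPM per cell in WT and 105, 2552 and 10254 CPM in Nuc1, and at 3841 and 2731 CPM summed against 667 and 614 in astrocytes. The lower genes were other tubulins. Tubb2a was at 143 and 193 CPM against 503 and 441, Tubb2b at 78.1 and 48.0 against 608 and 374, and Tubb3, known from neurons, at 2.17 and 1.61 against 26.6 and 12.3. Tuba1a was close to its astrocyte level at 2800 and 2553 against 3489 and 2978. Of 19 genes for axonemal energy and kinases 11 were higher and 1 was lower. Ak7, an adenylate kinase of the axoneme, was at 341 and 321 CPM against 2.24 and 8.99. Ckb, brain creatine kinase, was at 1937 and 2615 CPM against 5861 and 6006.

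The label ependymal-like was checked against markers other than cilia genes, and held only in part. Of 22 ependymal genes 10 were higher than in astrocytes and 1 was lower, and those that were higher included axoneme-linked genes such as Odf3b (210 and 274 CPM against 0.321 and 0.341) and Pifo (301 and 252 against 0.641 and 1.59). Outside the axoneme, Pltp, a phospholipid transfer protein, was at 961 and 964 CPM against 134 and 143, Nnat, neuronatin, at 282 and 398 against 30.8 and 20.3, and Hdc, histidine decarboxylase, at 67.2 and 53.8. Genes that ependyma shares with astrocytes were close, with S100b at 3301 and 3815 CPM against 3418 and 5230, Sox9 at 260 and 409 against 286 and 341 and Cd24 at 757 and 721 against 627 and 611. Rarres2, a further ependymal marker, was at 86.8 and 108 CPM against 131 and 190. The cells are therefore named by their cilia genes here.

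Markers of other ciliated or neighbouring cells were low or absent for some lists and above the astrocyte level for others. The list of airway or other epithelium summed to 412 and 410 CPM, against 62.5 and 56.4 in astrocytes and 471 and 198 in fibroblast-rich cells. Per cell, the choroid plexus list had medians of 421 and 372 CPM, against 40.6 and 105 in astrocytes and 339 and 664 in fibroblast-rich cells. Scgb1a1, Foxa1 and Muc5b of airway epithelium had no UMI, though Krt18 (241 and 102 CPM against 3.53 and 8.54) and Krt8 (156 and 303 against 48.4 and 41.5), keratins of simple epithelia, were higher. Folr1, a folate receptor of choroid plexus, was at 403 and 370 CPM against 51.0 and 124. Ttr, the choroid plexus transthyretin, had no UMI in WT and 4405 CPM in Nuc1, but 13661 of its 13679 UMIs were in 1 cell. The tanycyte list had 0 of 5 genes higher and 3 lower, and the neuron list 0 of 4 higher and 3 lower. The microglia and macrophage list summed to 4.34 and 11.9 CPM, the erythroid list to 0, and the fibroblast list to 963 and 687 CPM against 2485 and 1124 in astrocytes and 14184 and 9428 in fibroblast-rich cells. At a lower limit than that of fibroblast-rich cells, 300 CPM for Col1a1, Col3a1, Dcn and Lum together, 1 WT and 13 Nuc1 members were rich in fibroblast RNA.

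Lhx2, a forebrain and eye factor, was found in both groups of glia, at 184 and 109 CPM against 135 and 123. Of 6 positional transcription factors 0 were 2-fold higher and 0 lower in both libraries. Six3, an eye field and forebrain factor, had a UMI in 8 of 17 WT cells and 3 of 137 Nuc1 cells, at 32.5 and 0.966 CPM. The markers Pax2, of optic stalk, and Otx2 had no UMI in the motile-cilia cells.

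Astrocyte genes were lower than in astrocytes but far above the level outside glia. Of 21 astrocyte genes 0 were higher and 8 lower in both libraries, with medians of -1.57 and -1.05, and the 3 genes that define the astrocytes fix part of this. Gfap, the glial filament, was at 46.2, 481 and 8366 CPM per cell in WT and 0, 1642 and 16723 CPM in Nuc1, and 1553 and 3423 CPM summed against 6376 and 9528 in astrocytes and 7.68 and 15.2 in fibroblast-rich cells. Fabp7, the brain fatty acid-binding protein, was at 1089 and 2122 CPM against 5224 and 6300, and Aqp4, the water channel, at 976 and 1005 against 1694 and 1589. The summed astrocyte list ran from 9477 through 21640 to 62800 CPM per WT cell and from 2516 through 28495 to 86597 CPM per Nuc1 cell. Astrocytes had medians of 45208 and 62768 CPM and fibroblast-rich cells of 3172 and 3944, so the ranges of the members and of astrocytes overlapped widely. Mt3, a metallothionein of glia, was at 6120 and 7678 CPM against 6548 and 8763. Cryab, αB-crystallin, was at 163 and 134 CPM against 715 and 416, and Clu, clusterin, at 1663 and 4267 against 1936 and 5537.

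The study asks about STAT3 signalling in astrocytes. Of 14 JAK-STAT genes 0 were 2-fold higher in the members than in astrocytes and 1, the receptor subunit Cntfr, was lower. Over all genes 9.36% were higher and 4.11% lower, so the JAK-STAT count says nothing particular about these genes. Stat3 itself was at 135 and 158 CPM against 135 and 137, Il6st, the gp130 receptor subunit, at 47.7 and 52.5 against 28.2 and 26.7, and Ptpn1, the phosphatase PTP1B, at 36.9 and 64.7 against 39.8 and 39.2. Of 21 listed STAT3 target genes 0 were higher and 4 lower.

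The reactive astrocyte list summed to 17961 CPM in the WT members and 20748 in the Nuc1 members, against 32577 and 38134 in astrocytes. Of its 16 genes that passed the filter 2, Cd109 and Gbp2, were higher and 5 lower, and of 11 neural progenitor genes 0 were higher and 1, Id3, was lower. Of 20 planar polarity genes, which align the beat of cilia across a tissue, only Fzd6, a Wnt receptor, was higher, at 41.2 and 27.1 CPM against 5.13 and 3.19, and 0 were lower. Of 11 complement and MHC class I genes only C1r was higher, and of 5 crystallins Cryab and Crybb1 were lower. Of 16 genes of the dissociation response, the early genes that tissue digestion can switch on, only Fosb was higher and 0 were lower, and 0 of the 13 mitochondrial genes moved 2-fold. Of 6 oligodendrocyte lineage genes 0 were higher and 2 lower.

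Over all genes, members of the lists above were among those with the largest ratios to astrocytes. Named by size in the Nuc1 library among genes also 2-fold higher in WT, Odf3b, Pde6h, Dnah6, Cfap44, Dydc2, Cfap65, Wdr63, Iqca, Ppp1r32, Cfap77, Lrrc34, Cfap53, Mei4, Spag6l and Spag17 led. Odf3b was higher by 8.46 and 9.33 on the log2 scale and Dnah6 by 7.88 and 9.0. Pde6h, a phosphodiesterase subunit of cone photoreceptors, had no UMI in WT astrocytes and was at least 203-fold higher in the WT members. At the other end stood Tubb2b, Phox2a, Aplnr, Tubb3, Stmn4, Plppr1, Ass1, Gng3, Clec2dl1, Gap43, Msln, Igfbp6, Cxcl14, Tnfrsf21 and Rgcc. Cxcl14, a chemokine, was at 62.9 and 266 CPM against 1190 and 1338, and Rgcc at 26.02 and 46.7 against 195 and 226. Gap43, Gng3 and Stmn4 are genes of growing nerve cells that the astrocytes also held.

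Against all other kept cells, which are mostly fibroblast-rich, 14.1% of 11695 genes were at least 2-fold higher in both libraries and 16.1% at least 2-fold lower. The split between higher and lower calls moved with the scaling. Against astrocytes 844 genes were higher and 371 lower by CPM, but 640 higher and 680 lower after TMM scaling, which shifted every log2 ratio by -0.29 in WT and -0.30 in Nuc1. The ratios of the axonemal genes are many times this shift.

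The members varied widely in the sum of the rule genes. That sum chose the cells, so the bands below describe its spread and do not show whether the cells form a gradient or a mixture. In 3 bands of the rule sum, from 500 to 2000, from 2000 to 6000 and from 6000 CPM up, stood 6, 4 and 7 WT cells and 39, 44 and 54 Nuc1 cells. The motile cilia list ran along the bands from 6928 through 12992 to 23397 CPM in WT and from 4660 through 11765 to 22466 CPM in Nuc1, although it holds none of the rule genes. Intraflagellar transport went from 3324 through 4572 to 7327 CPM and from 2018 through 3825 to 6243 CPM. Tubb4b was at 1604, 1840 and 6250 CPM and at 972, 2790 and 4627 CPM. Hydin was at 175, 268 and 446 CPM and at 130, 283 and 525 CPM.

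Astrocyte genes ran the other way. Gfap was at 2922, 2097 and 359 CPM along the WT bands and at 5568, 3220 and 1244 CPM along the Nuc1 bands, and the astrocyte list at 27672, 28728 and 16746 CPM and 43193, 31527 and 23151 CPM. Sox9 showed no such slope, at 279, 312 and 225 CPM and 373, 396 and 463 CPM, and Dynlrb1 was at 266, 357 and 423 CPM and 283, 287 and 330 CPM. The fibroblast list ran the same way, from 2279 through 591 to 184 CPM and from 1211 through 726 to 63.4 CPM. Depth moved along the bands in Nuc1, with median UMIs per cell of 27029, 21949.5 and 15228, and not in that order in WT, with 25498, 23306.5 and 31583. Across the cells, which share their library, Spearman's rho of the rule sum was 0.92 in WT (n = 17) and 0.91 in Nuc1 (n = 137) with the motile cilia list, -0.44 and -0.50 with the sum of Gfap, Fabp7 and Aqp4, and 0.19 and -0.33 with the UMIs of the cell. The part of depth and of RNA from other cells in these slopes was not tested.

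**Figure D4:**
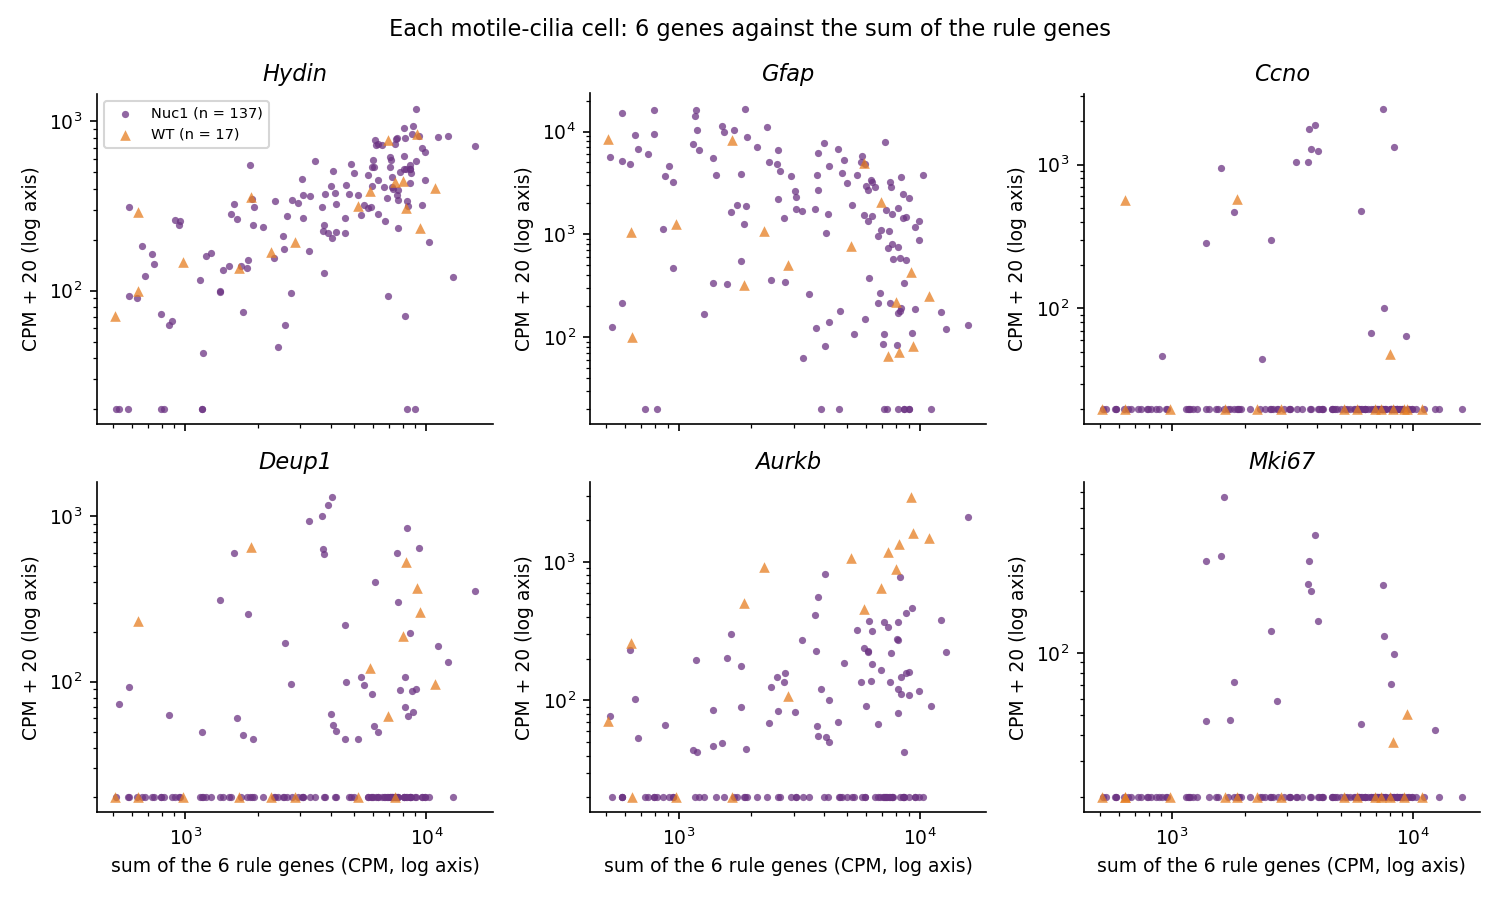
Level of Hydin, Gfap, Ccno, Deup1, Aurkb and Mki67 (y, CPM plus 20, log axis) against the sum of the 6 rule genes (x, CPM, log axis) in each motile-cilia cell, orange for WT (17 cells) and purple for Nuc1 (137 cells). Hydin is higher and Gfap lower toward high sums, while Ccno is high in 2 WT and 13 Nuc1 cells and near 0 in the others.

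Astrocytes themselves held traces of the rule genes. Of 122 WT astrocytes 74 (60.7%) had no UMI of the 6 genes, and of 342 Nuc1 astrocytes 171 (50%), against 98.2% and 93.0% of fibroblast-rich cells. Astrocytes with 0, 1 and at least 2 of the genes had summed motile cilia levels of 856, 1118 and 1970 CPM in WT and 747, 964 and 1642 CPM in Nuc1. These levels remained well below those of the lowest band of the members.

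Ccno, a gene of centriole amplification, had a UMI in 3 of 17 WT and 18 of 137 Nuc1 members, and Deup1 in 9 and 46. Below, cells with at least 5 UMIs of Ccno are called cells with Ccno, and members under that limit are called members without it. At least 5 UMIs of Ccno, a cyclin-like protein needed to multiply centrioles, were found in 2 of 17 WT cells (11.8%) and 13 of 137 Nuc1 cells (9.49%), against 4 of 122 astrocytes (3.28%) in WT, 1 of 342 (0.292%) in Nuc1 and 0 fibroblast-rich cells. Of the centriole amplification genes 2 of 8 in WT and 6 of 15 in Nuc1 were at least 2-fold higher in the members with Ccno than in those without, and 1 and 0 were lower, where 10.9% and 12.4% of all genes were higher. Deup1, the scaffold of the deuterosome on which new centrioles form, was at 401 CPM in the 2 WT cells against 150 in the other members and at 561 against 30.3 CPM in Nuc1. Plk4, the kinase that starts centriole assembly, was at 267 against 5.0 CPM and 238 against 5.1, and Myb at 317 against 64.8 and 233 against 35.5. Pcm1, of the centriolar satellites, was at 1437 against 394 and 1316 against 295 CPM, while Ccdc78, which the deuterosome also holds, was at 66.8 against 135 CPM in WT and 111 against 99.8 in Nuc1. Mcidas and Foxn4, regulators of this step, were at 27.1 and 56.9 CPM in the Nuc1 Ccno cells, against 0.4 and 0.7 in the other Nuc1 members, and had no UMI in WT members.

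Cell division genes differed in the same split in Nuc1. There 9 of 15 were higher and 2 lower, against 3 and 3 of 8 in WT. In the Nuc1 Ccno cells Cdk1 was at 588 CPM against 34.4 in the other members, Top2a at 547 against 35.5 and Mki67 at 130 against 20.5. In the 2 WT Ccno cells Cdk1 was at 451 against 89.7 CPM and Top2a at 184 against 69.8, but Mki67 had no UMI. In each library the member with the highest sum of this list, which includes Aurkb, was among those without Ccno. The sum per cell was 1285, 3184 and 5702 CPM (lowest, median, highest) in the 13 Nuc1 cells with Ccno and 0, 314 and 7684 CPM in the other 124, and it was 1494 and 1753 CPM in the 2 WT cells with Ccno and 38.6, 1043 and 3776 CPM in the other 15. Of the motile cilia genes 41 of 87 in WT and 14 of 98 in Nuc1 were lower in the cells with Ccno and 2 and 6 were higher, against 18.8% and 12.4% of all genes lower. Ccdc153 was at 0 against 877 CPM in WT and 257 against 650 in Nuc1, Tmem212 at 0 against 399 and 195 against 364, and Dnah6 at 0 against 162 and 54.2 against 174, while Dnah12 was at 200.5 against 354 in WT and 374 against 249 in Nuc1. The sum of the motile cilia list was 9873 against 16768 CPM in WT and 14156 against 12460 CPM in Nuc1, so the 2 libraries differed in direction there, which was not tested. The 4 WT astrocytes with Ccno held Myb at 472 CPM and Mcidas at 58.0 CPM, with the rule genes together at 82.9 CPM. The choice of Ccno for this split, of its limit and of the genes named was made after their values were seen.

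Aurkb, a kinase of cell division, behaved otherwise than most of its list. It had a UMI in 14 of 17 WT members and 71 of 137 Nuc1 members, at 0, 626 and 2913 CPM per cell in WT and 0, 23.9 and 2095 CPM in Nuc1, and summed to 837 CPM (756 to 925) and 108 CPM (96.9 to 120) against 16.7 and 5.69 in astrocytes. Along the bands of the rule sum it was at 143, 580 and 1435 CPM in WT and 47.1, 86.4 and 198 CPM in Nuc1. Of 17 cell division genes only Aurkb and Ccnb1 were 2-fold higher than in astrocytes in both libraries and 0 were lower. The whole list summed to 1574 CPM in the WT members and 952 in the Nuc1 members. Aurkb, at 837 and 108 CPM, was thus a large part of the WT sums of this list. Mki67, the common mark of dividing cells, was at 4.34 and 33.5 CPM against 63.5 and 15.8, and Birc5, a partner of Aurkb in mitosis, at 2.17 and 10.6 CPM. Borcs6, the next protein-coding gene beside Aurkb in GRCr8, was at 36.9 and 27.4 CPM against 21.8 and 25.6, and whether the counting kept neighbouring genes apart was not tested. Aurkb had a UMI in 14.5% and 9.30% of fibroblast-rich cells.

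Between the genotypes, most motile cilia genes of the members differed by less than 2-fold. Within motile-cilia cells 8.43% of 9046 genes were at least 2-fold higher in Nuc1 and 5.7% at least 2-fold lower, with a median log2 ratio of -0.06 over all genes. Of 99 motile cilia genes 0 were higher and 4 were lower, among them Efhc2 (-1.49), RGD1560242 (-1.32) and Saxo2 (-1.08). The median ratio of the 99 genes was -0.34, but this sign turned to 0.0525 when cells were thinned to 1 depth and to 4.80 with the single WT cell under 10% mitochondrial UMIs, and it was -0.13 after TMM scaling and -0.0058 among members with a rule sum of at least 6000 CPM. Of 28 intraflagellar transport genes only Ift74 passed 2-fold, lower at -1.02 (-1.23 to -0.81), with 536 and 264 CPM, and 0 of 18 transition zone genes did. Spa17, a sperm and cilium protein, was at 661 and 322 CPM, a log2 ratio of -1.04. The WT side of each ratio rests on 17 cells.

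Astrocyte genes within the members were higher in Nuc1. Of 20 genes 11 were at least 2-fold higher and 1, Aldh1l1, was lower, with a median log2 ratio of 1.02, while in astrocytes the median was 0.47 and in the other kept cells 0.59. Gfap was higher by 1.14 (1.03 to 1.25), Mlc1, a membrane protein of astrocyte endfeet, by 1.23, Hspb1, a small heat shock protein, by 1.14, Sparcl1, a secreted matrix protein, by 1.28, and Apoe by 1.01. Aqp4 (0.04) and S100b (0.21) were close to equal. More of the Nuc1 members reached the astrocyte limit, as given above, and the part this had in the ratios was not tested. Clu was at 170, 786 and 10393 CPM per cell in WT and 106, 3179 and 32233 CPM in Nuc1, a log2 ratio of 1.36 that was 1.52 in astrocytes and 1.84 in the other kept cells.

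**Figure D5:**
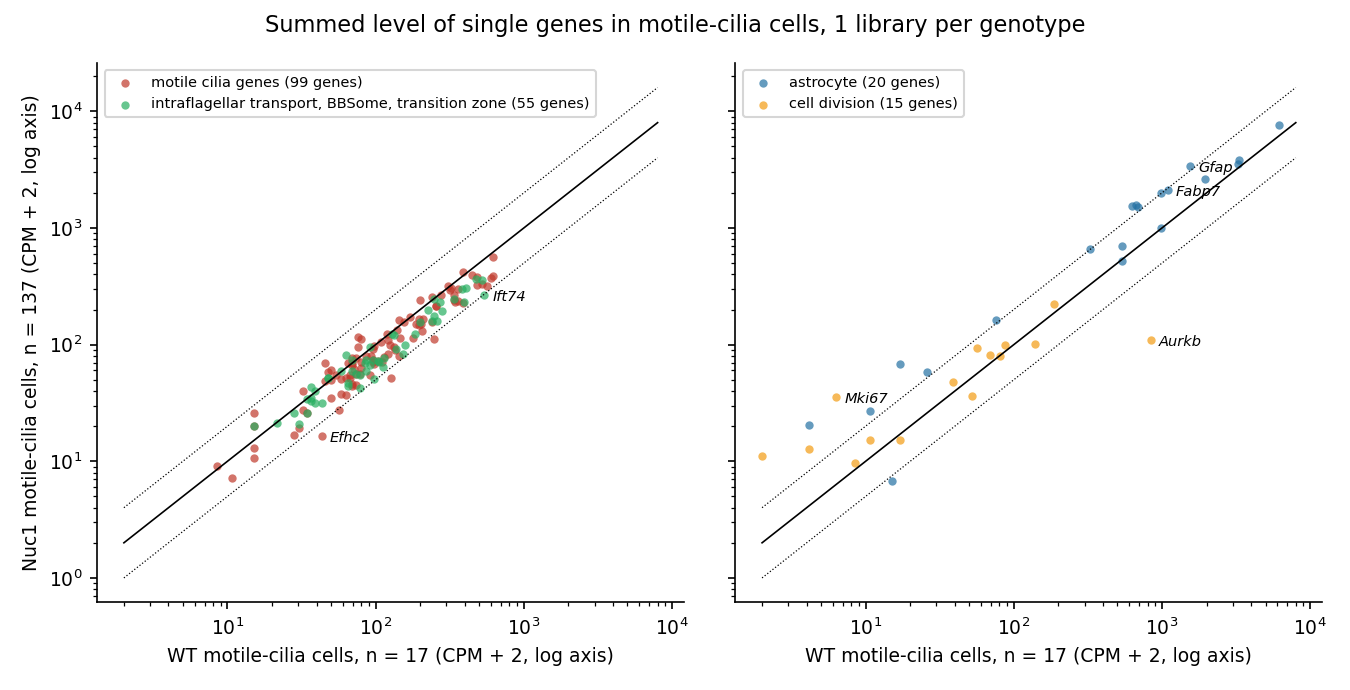
Level in Nuc1 (y) against WT (x) motile-cilia cells, both in CPM plus 2 on log axes, 1 point per gene, for motile cilia (99 genes), transport, BBSome and transition zone (55), astrocyte (20) and cell division genes (15), with a solid line at equality and dotted lines at 2-fold. Cilia genes lie along the line with 4 motile cilia genes beyond 2-fold, while 11 astrocyte genes lie above it.

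By size, the genes highest in Nuc1 over WT members included Eif2s3y, Serpinb1a, Cyp1b1, Stmn4, Thbd, Pja1, Fam241b, Pbk and Ctsk. These genes had no UMI in the WT members, and the bounds were low, from at least 4.21-fold for the Y-linked Eif2s3y and 4.01-fold for Serpinb1a to 2.47-fold for Ctsk. Cyp1b1, Thbd and Ctsk were lower in the Nuc1 members than in the other kept cells, at log2 ratios of -3.70, -3.49 and -4.59. RT1-A1, a class I MHC gene, was at 0, 0 and 77.3 CPM per cell in WT and 0, 170 and 832 CPM in Nuc1, found in 5 and 130 cells, and its log2 ratio of 3.38 (2.42 to 4.62) stood beside 3.66 in astrocytes and 3.48 in the other kept cells.

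Lowest in Nuc1 were Cd200, Aurkb, Car3, Usp33, Sez6, Ltbp2, Gpat3, Scrn1, Ptprd and Tnfaip6. For 4 of them a single WT cell carried most of the UMIs, 29 of 36 for Cd200, 27 of 33 for Car3, 16 of 26 for Sez6 and 21 of 32 for Tnfaip6. Aurkb (-2.95, -3.17 to -2.74) was spread over cells and was also lower in Nuc1 astrocytes (-1.54). Scrn1, secernin-1, was found in 16 of 17 WT and 82 of 137 Nuc1 members at medians of 209 and 41.5 CPM, a log2 ratio of -2.17 that was -1.83 in astrocytes and -1.25 in the other kept cells. Usp33, a deubiquitinase, was at 78.1 and 14.2 CPM in the members and 37.5 and 9.67 in astrocytes, and Gpat3, of lipid synthesis, at 47.7 and 9.02 against 40.1 and 11.5. Of 16 genes of the dissociation response 4 were lower in Nuc1 members, Fosb (-1.27), Atf3 (-1.74), Zfp36 (-1.09) and Nr4a1 (-1.30), and 9 were lower in Nuc1 astrocytes, where 7.63% of all genes were lower and 3.4% higher.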

How the data were processed

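Single-cell 3′ libraries (10x Chromium v3.1) of 1 WT and 1 Nuc1 optic nerve preparation were analysed from the UMI counts the authors deposited as gene by cell matrices (25399 genes, 99 repeated symbols). The submitters' processing notes name Cell Ranger 3.1.0, STAR 2.7 and Seurat 3.1.0 and 3.1.1. The genome build is not given in the sources used here. Filters, the cell rule and the astrocyte rule are as stated in the report. Fibroblast-rich cells had a sum of Col1a1, Col3a1, Dcn and Lum of at least 2000 CPM and were neither of the other classes. A member was called rich in fibroblast RNA when the same sum was at least 300 CPM.

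UMIs were summed per class and library, and ratios of CPM took 0.5 added UMIs, with exact Poisson, conditional or Clopper-Pearson 95% intervals (Python 3.11.15, numpy 2.4.6, scipy 1.17.1, pandas 2.3.3, matplotlib 3.10.9), and TMM scaling came from edgeR 4.0.16 in R 4.3.3. A gene entered a ratio with at least 20 UMIs over the compared cells and was counted at 2-fold. A group with no UMI was set at 3 counts per group for bounds. The interval code was tested on simulated data. Neither clustering nor doublet calling was run. Genes named by size were the 15 highest and 15 lowest ratios to astrocytes (at least 100 UMIs, 2-fold in both libraries) and the 10 highest and 10 lowest Nuc1 to WT ratios (at least 50 UMIs, no cell with over 50% of them, which left out 17 genes). The members and gene lists were chosen with earlier results of these data known. A few genes that these rules name are not reported here. List members described singly were chosen after their values were seen.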

Additional observations from a re-analysis of the deposited data

Results flagged for a closer look

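In 4 genes the motile-cilia cells stood at least 2-fold to opposite sides of the astrocytes in the WT and the Nuc1 library, and the difference between the libraries was not tested. Mki67, a mark of dividing cells, was at a log2 ratio of -3.79 in WT (-6.93 to -2.0, from 2 UMIs in the members) and 1.08 in Nuc1. Cenpf, a kinetochore protein, was at -1.05 and 1.16. Pbk, a mitotic kinase, had no UMI in the WT members, which were at least 3.99-fold lower than astrocytes (its -6.55 depends on the 0.5 UMIs added and is no bound), and was at 1.603 in Nuc1. Lcn2, lipocalin-2, a gene of reactive astrocytes, was at -2.19 in WT (-7.67 to 0.246, from 1 UMI in the members) and 1.02 in Nuc1. The WT value rests on 17 cells, and Mki67 had a UMI in 12 of the 13 Nuc1 members with Ccno and in 7 of the other 124.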

How the results depend on the processing

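No paired analysis was possible because there was only 1 WT and 1 Nuc1 library. A count was taken as moved past 1.5 times, a share or single gene outside its 95% counting interval, and a list median outside the 95% binomial interval of the median over its genes, which treats genes as independent. Of 297 values (11 summaries under 27 settings) 246 stayed within this, 49 moved and 2 reversed, and of 2396 single-gene values 2187 stayed, 198 moved and 11 reversed. The cause was not tested where none is named. A mitochondrial limit of 10% left 1 WT and 28 Nuc1 members (0.0802% and 2.50%), with a median motile cilia log2 ratio to astrocytes of 0.77 in WT and 4.02 in Nuc1, 59 genes higher and 118 lower than astrocytes, 611 higher than the other cells, 1951 higher and 877 lower in Nuc1, a reversed Nuc1 to WT cilia median of 4.80, reversed WT ratios of -1.04 for Cfap44, Dydc2, Iqca and Cfap77 and -1.64 for Cfap65 and Cfap53, and reversed Nuc1 to WT ratios of 7.43 for Aurkb and 5.33 for Tnfaip6. The Nuc1 to WT cilia median was -0.0939 with a rule sum from 250 CPM, -0.43 from 1000 CPM (where Cd200 reversed to 4.76), -0.44 without Cfap126 in the rule, 0.0525 (reversed) in cells thinned to 10000 UMIs, -0.0328 without members at the astrocyte limit, -0.13 after TMM, -0.10 as a mean over cells and -0.0058 with a rule sum from 6000 CPM. Thinning gave a WT cilia median of 3.88 and 506 genes higher than astrocytes. Leaving out every cell with at least 300 CPM of Col1a1, Col3a1, Dcn and Lum together, members and astrocytes included, left 16 and 124 members. Their shares were 8.79% and 29.1%, with 790 genes higher and 546 lower than the other cells. Without members at the astrocyte limit 7 and 35 cells remained (0.358% and 2.07%), 679 genes were lower than astrocytes, 498 higher and 276 lower in Nuc1, and Tnfaip6 reversed to 2.51. TMM gave a Nuc1 cilia median of 4.03, 680 genes lower than astrocytes and 297 lower in Nuc1, against 1023 higher in Nuc1 where CPM gave 763 and 516, with a shift of 0.21. With genes from 1 UMI, 1563 were higher and 1126 lower than astrocytes, 3522 lower than the other cells, and 3372 higher and 1684 lower in Nuc1. With genes from 100 UMIs, the WT cilia median was 4.08, 335 genes were higher and 191 lower than astrocytes, 1011 higher than the other cells, and 168 higher and 119 lower in Nuc1. Chosen after seeing the data, members with a rule sum from 6000 CPM (7 and 54 cells, 0.358% and 3.16%) had cilia medians of 5.05 and 5.14, with 1029 genes lower than astrocytes, 504 higher and 325 lower in Nuc1 and Sez6 reversed to 1.78, and astrocytes without a UMI of a rule gene, also chosen after seeing the data, gave a WT cilia median of 5.01. With 17 WT cells, 1 UMI is worth about 2.17 CPM in the summed WT members, which limits every gene absent there.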
